A study of Mus musculus with 18 samples.

Results

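The genes followed here carry known variants between C57BL/6 substrains. Nnt, Cyfip2, Crb1, Wdfy1, Ide, Entpd4 and Nlrp12 were measured in neuronal nuclei of the medial entorhinal cortex (MEC). They were chosen by symbol, 7 of 27782 genes listed, and all 7 had a mean above the limit for testing, which was 25 over the 18 libraries. Each library came from 1 C57Bl/6 mouse that had run the Split Maze task with silicon probe recordings, and the nuclei were sorted for NeuN after dissection. The 6 young mice were about 2 to 3 months old, came from Charles River and had no substrain given. The 6 middle-aged (MA) mice, about 12 to 13 months old, and the 6 aged mice, about 21 to 23 months old, came from The Jackson Laboratory, and the stock number given for the aged mice is that of C57BL/6J. MA mice were bought young and aged in house, whereas aged mice were bought when already old. Every group held 3 females and 3 males, and sex coincided with recording cohort in young and aged mice (females in C, males in D), whereas all MA mice belonged to C. Supplier and age both separate the young mice from the 12 MA and aged mice, called older mice here, and cannot be told apart in that comparison. Aged against MA mice is the comparison within 1 supplier. The dissection may include lateral entorhinal cortex and parasubiculum.

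C57BL/6 mice have been bred as separate colonies for many generations, and their substrains have since fixed different mutations. In C57BL/6J, Nnt, which encodes the inner mitochondrial membrane enzyme that uses the proton gradient to make NADPH, lacks several exons. Crb1, a cell polarity protein best known in the retina, carries the rd8 frameshift in C57BL/6N, and Cyfip2, a subunit of the actin-regulating WAVE complex, carries a missense change there. Nlrp12, a cytosolic NOD-like receptor of myeloid cells, differs by a missense change in C57BL/6J. Wdfy1 is an endosomal protein that binds phosphatidylinositol 3-phosphate and serves as an adaptor of Toll-like receptors. Ide degrades insulin and amyloid-beta, and lies with Fgfbp3 in a segment whose copy number varies in C57BL/6J. Entpd4 is a nucleoside diphosphatase of the Golgi and lysosomes. The variants of Wdfy1 and Entpd4 are not described here. Values per exon or allele were not analysed here, so no mouse was typed for any of these variants.

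Nnt and Entpd4 need their sequence to be read correctly, and both sequences were read from GRCm39, whose reference mouse is C57BL/6J. Nnt lies at chr13:119470859-119566380 on the minus strand, and its canonical transcript, Nnt-202, has 17 exons, of which the first is not coding. The exons that C57BL/6J lacks would fall between exon 7 (chr13:119518212-119518399) and exon 8 (chr13:119511165-119511310), so the reference joins these directly. The junction is shown with 30 bases on each side and with the last 3 bases of exon 7 and the first 3 of exon 8 in capitals.
Nnt exons 7 and 8: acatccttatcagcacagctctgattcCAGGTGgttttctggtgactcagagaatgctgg
A transcript with the missing exons would not contain this junction, and its extra exons have no place in this reference.

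Entpd4 lies at chr14:69574623-69604719 and its copy Entpd4b, listed as Gm21685 in the deposited table, at chr14:69792873-69822969, both on the plus strand. The 30097 bases of the one gene body and the 30097 of the other had 0 differences. The same 60 coding bases, from exon 9 of Entpd4 (chr14:69599088-69599147) and the matching place in Entpd4b (chr14:69817338-69817397), are shown to make this visible, with 1 window of 31 bases in capitals.
Entpd4: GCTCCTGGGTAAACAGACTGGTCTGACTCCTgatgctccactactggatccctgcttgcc
Entpd4b: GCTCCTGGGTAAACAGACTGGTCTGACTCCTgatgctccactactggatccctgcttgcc
Of the 31-base windows in the annotated transcripts of Entpd4, 99.7% also occur in other genes. For Crb1, the lowest, the share was 0.963%, and for Nnt it was 9.36%. Since the gene bodies do not differ, the sequence of a read cannot tell the copies apart. The split between both entries comes from the counting program and its annotation. Their sum does not depend on that split.

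The other 5 genes lie at chr1:139124794-139304848 (Crb1), chr1:79679017-79753860 (Wdfy1), chr7:3267458-3298370 (Nlrp12), chr11:46084550-46203686 (Cyfip2) and chr19:37245688-37340729 (Ide), all on the minus strand. Introns were counted and strand use in counting is not given in the sources used here, so reads of genes that overlap on the opposite strand may be mixed. Such tested genes were Paip1 in Nnt, Fndc9 in Cyfip2 and Mrpl44 in Wdfy1, and their own log2 fold changes between older and young mice were 0.32, 0.48 and 0.06.

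The libraries held 19910 to 24102 genes above 0, and their depth is unknown because the deposited values are normalized. They are reads per gene divided by a size factor of the library, in no further unit, and not by gene length, so they are compared between mice and never between genes. The neuronal markers were present throughout, with a summed level over 6 markers of 115268 to 203595 in young, 92897 to 141929 in MA and 123097 to 185368 among aged mice. Xist and Ddx3y matched the sex of every mouse (Xist 3724 to 17264 in females and 0 to 41.5 in males). Cerebellar granule cell markers, most of which are scarce in cortical neurons, summed to 18164 in the young male Y25 and 44388 in the MA male MA5, and to between 73.6 and 747 in the other libraries. Without both, Entpd4 and Wdfy1 kept an unadjusted p under 0.05 between older and young mice in limma (log2 fold changes of 0.82 and -0.37), whereas Nnt and Crb1 did not (0.45 and 0.88).

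None of the 7 genes was called between older and young mice, although 4 had an unadjusted p under 0.05 in limma. Nnt, Crb1 and Entpd4 had higher levels in older mice, where 3.46% of all genes were higher at that limit, and Wdfy1 a lower one, whereas Cyfip2, Ide and Nlrp12 did not reach that limit. In bulk samples, fewer cells of a type and less RNA per cell cannot be told apart. Calling needed a Benjamini-Hochberg adjusted p of 0.05 over all 17985 genes tested together with a log2 fold change of 0.5 or more in size. Of all genes, 15 (0.0834%) were called in this comparison, and 5.83% had an unadjusted p under 0.05. The adjusted p of the 7 genes ranged from 0.811 to 0.972 in limma. Of the 7 log2 fold changes 4 were positive, and their median, the value of Nnt, was 0.60, beside 0.01 over all genes tested. Nlrp12, among the positive ones, had a young mean under 25 and was tested only through the older groups. None of the 7 had groups without overlap between the 6 young and the 12 older mice, whereas 0.0667% of all genes tested did.

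Each older group was also compared alone. Against young mice, 0 of the 7 genes were called in MA mice (background 0.0778%) and 0 in aged mice (0.0612%). At an unadjusted p under 0.05, 3 of the 7 passed in MA mice (Nnt, Entpd4 and Wdfy1), where 3.71% of all genes did, and 3 in aged mice (Crb1, Entpd4 and Wdfy1), where 5.36% did. These comparisons share the 6 young mice. Between aged and MA mice, the comparison within 1 supplier, 0 of the 7 genes were called and 0 had an unadjusted p under 0.05 in limma. Of all genes, 0% were called there and 2.12% (381 genes) had an unadjusted p under 0.05.

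**Figure D1:**
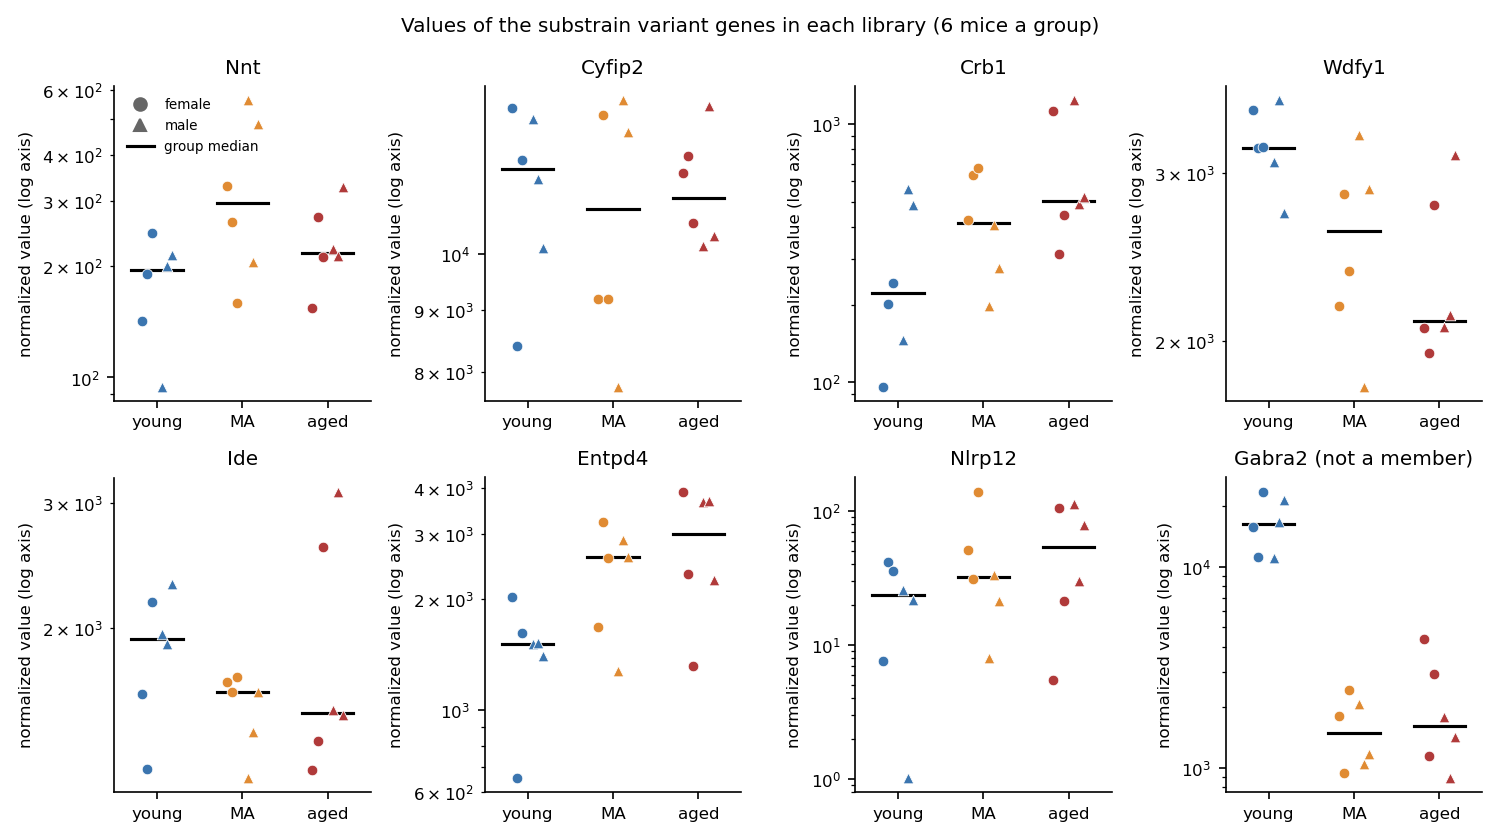
Normalized value of each gene in every library, on a log axis, for 6 young, 6 MA and 6 aged mice, with circles for females, triangles for males and a line at the group median. The young and older values overlap for all 7 genes, and only Gabra2, which is not one of the 7, separates the young mice from all others.

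Entpd4 had higher values in most older mice than in any young mouse. In young mice its value was lowest at 654, had a median of 1510.5 and was highest at 2022. In MA mice the lowest, median and highest values were 1277, 2592 and 3238, and in aged mice they were 1319, 2995 and 3899. Of the 12 older mice, 9 lay above every young mouse, and the groups overlapped through MA1, MA3 and the aged female A18. The older mice had a log2 fold change of 0.83 ± 0.26 (SE), or 1.78-fold, with an adjusted p of 0.811 in limma and a 95% interval of 0.28 to 1.38. An exact permutation test of 6 against 12 mice gave p = 0.0098 (two-sided, unadjusted). Aged and MA mice differed by 0.24 ± 0.30 (SE), and the 95% interval of -0.40 to 0.87 spans changes in both directions (exact permutation p = 0.472). By sex, the log2 difference between older and young mice was 0.87 in females (exact permutation p = 0.143) and 0.80 in males (exact permutation p = 0.0952). Over the 18 libraries Entpd4 had an r of 0.52 with the summed level of the 6 neuronal markers, which differed by -0.0039 on the log2 scale between older and young mice (exact permutation p = 0.973). Its r with the sum of 5 microglial markers was -0.47, and that sum differed by -0.65 (exact permutation p = 0.0498). No marker of either list was at 0 in any group, and the part of either in the Entpd4 result was not tested.

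Entpd4b followed Entpd4 across the 18 libraries with a Pearson r of 0.92 on the log2 scale, which such a pair shares in part by construction. Its values were 789, 1172 and 1946 (lowest, median, highest) in young, 1540.3, 2017 and 2916 in MA, and 1564, 2428 and 3088 among aged mice. Of the 12 older mice, 8 lay above every young mouse. Older mice were higher by 0.86 ± 0.18 (SE) on the log2 scale, or 1.82-fold, with an adjusted p of 0.153 in limma, and it was not called. Without the young mouse Y20, the highest young library, it was called, at 1.01 with an adjusted p of 0.0283 in limma. The adjusted p was 0.0662 to 0.359 in the other 17 fits that left out 1 library.

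The ratio of Entpd4 to Entpd4b averaged 1.19 ± 0.227 (SD) in young, 1.14 ± 0.198 in MA and 1.20 ± 0.250 among aged mice, n = 6 each. The log2 ratio differed by -0.03 between older and young mice (exact permutation p = 0.847). The ratio was the same, 0.829183, in the young mouse Y22 and the MA mouse MA3 to the 6 digits written. The young mice had a sum of 2675 ± 811 (SD, n = 6), against 4428 ± 1198 in MA and 5184 ± 1542 among aged mice. Treated as 1 gene in limma, an analysis chosen after the data were seen, the sum had a log2 fold change of 0.85 ± 0.22 (SE) and an adjusted p of 0.475. Its 95% interval was 0.39 to 1.31. An exact permutation test of the sum gave p = 0.0019 for older against young and p = 0.42 for aged against MA mice.

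**Figure D2:**
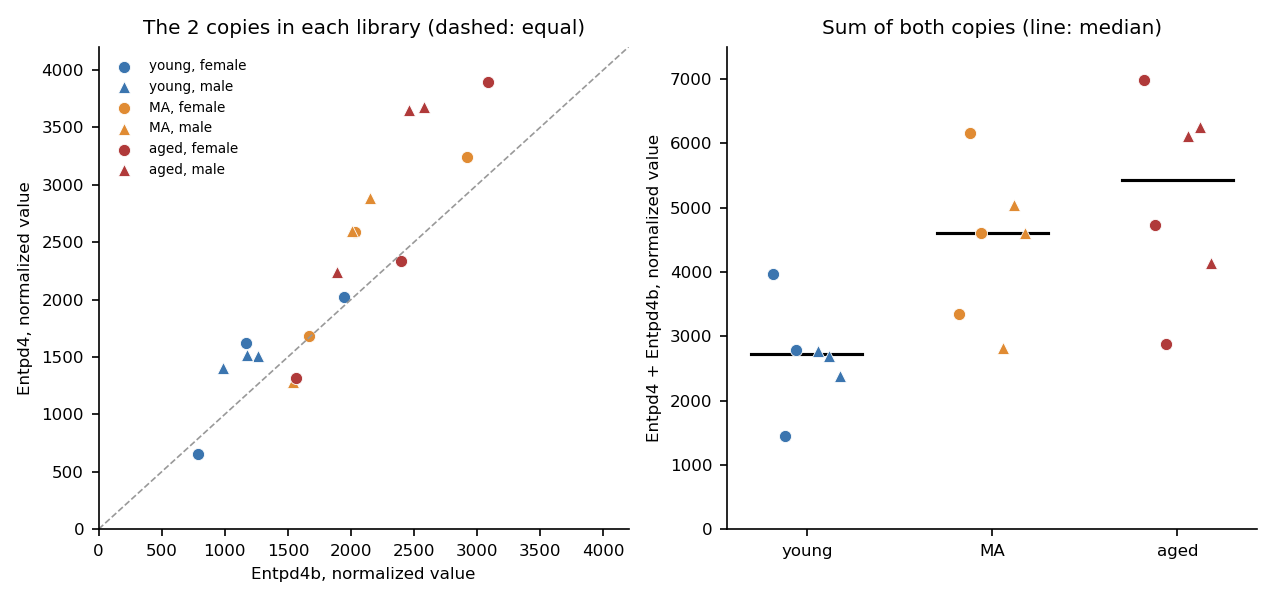
Left, normalized value of Entpd4 against Entpd4b in each of the 18 libraries, with the dashed line marking equal values. Right, the sum of both by group, with a line at the median; the young median of 2730.4 lies below the medians of 4609 in MA and 5423 in aged mice, and the single values overlap.

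The identity between both copies did not end with the gene. The run of identical bases around Entpd4 covers 125815 bases, chr14:69491734-69617548, and its other copy is chr14:69709984-69835798. The annotation places 20 genes wholly inside either copy, of which 11 are in the deposited table, and 5 of these had a mean high enough to be tested. They are Entpd4, Entpd4b and the long noncoding RNAs Gm27223, Gm27175 and Gm27174, none of them called, and they were looked at after Entpd4 had been examined, so their values are a description. Gm27223 and Gm27175 lie at matching places and held equal values in every library, with a mean of 35.3 ± 29.7 (SD, n = 6) in MA and 29.2 ± 23.5 in aged mice and a range of 0.874 to 24.6 in young mice (log2 fold change 1.39). Their young mean lay under the limit of 25, so they were tested only through the older groups, and they are 1 set of values. Gm27174 was at 69.7 ± 18.8 in young, 131 ± 35.7 in MA and 133 ± 60.3 among aged mice (log2 fold change 0.87). These genes share sequence and are not independent of each other.

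The tested genes that cross the edge of a copy gave unlike values. Slc25a37, a mitochondrial iron importer, has 71.3% of its length inside and had a log2 fold change of -0.03 with an adjusted p of 0.983 in limma. Gm27177, a long noncoding RNA, has 16.0% inside and had a level of 338 ± 322 (SD, n = 6) in young, 1155 ± 956 in MA and 929 ± 215 among aged mice, and a log2 fold change of 1.77 with an adjusted p of 0.475 in limma. The difference between both was not tested.

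**Figure D3:**
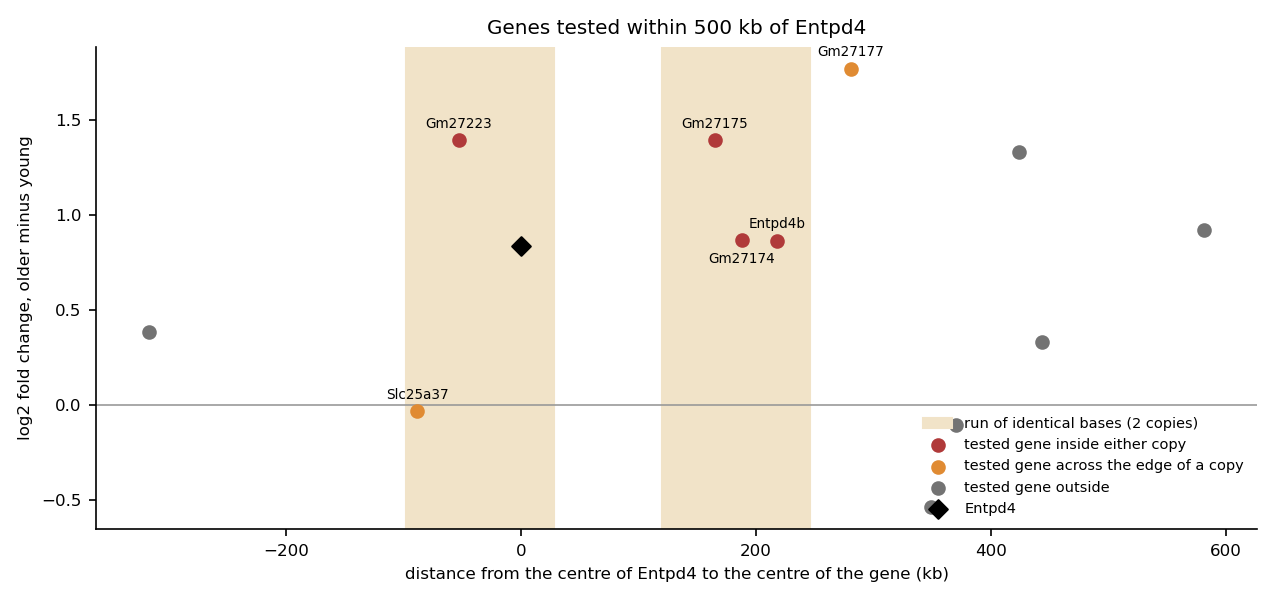
Log2 fold change between older and young mice of the 12 genes tested within 500 kb of Entpd4, by the distance of their centres from the centre of Entpd4, with the run of identical bases shaded in both places. Entpd4 and the 4 genes inside either copy lie between 0.83 and 1.39, and of the genes that cross an edge Slc25a37 lies at -0.03 and Gm27177 at 1.77.

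Genes near each of the 7 were counted in the same way. Within 500 kb, 69 genes were tested, and 0 were called between older and young mice, where 0.0834% of all genes were. An unadjusted p under 0.05 was found for 8 (11.6%), against 5.83% of all genes, and of these 7 lay near Entpd4 and 1 near Cyfip2. The 8 included Gm27223 and Gm27175, which are 1 set of values and were tested only through the older groups. Without the genes wholly inside the identical run it was 4 of 65 (6.15%), near the share of all genes. These 4 included Gm27177, which crosses the edge of a copy. The 16 neighbours of Cyfip2 had a median log2 fold change of 0.45. The neighbours of Nnt (4 genes), Crb1 (7), Wdfy1 (7), Ide (5) and Nlrp12 (18) had no gene with an unadjusted p under 0.05, and their median log2 fold changes lay between -0.08 and 0.15.

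Nnt had its highest values in MA mice. Lowest, median and highest values were 94.5, 195 and 246 in young mice, 159, 297 and 563 in MA mice, and 154, 218 and 328 in aged mice. Of the 12 older mice, 6 lay above every young mouse, 4 of them MA, and no older mouse lay below the young range. Older mice were higher by 0.60 ± 0.27 (SE) on the log2 scale, or 1.51-fold, with an adjusted p of 0.836 in limma and an exact permutation p of 0.0434. Against young mice the log2 fold change was 0.80 in MA and 0.39 in aged mice, and aged against MA gave -0.41 ± 0.32 (SE; exact permutation p = 0.242). The log2 difference was 0.24 in females (exact permutation p = 0.452) and 0.95 in males (exact permutation p = 0.0714), and the sexes were not shown to differ (0.71 ± 0.55 (SE), adjusted p = 0.998 in limma). The r of Nnt with the neuronal marker sum was -0.50 over the 18 libraries, and the part of that sum was not tested. The result was sensitive to single mice and to the fit. With recording cohort as a term the log2 fold change was 0.43 and after quantile normalization 0.47, neither with an unadjusted p under 0.05. An unadjusted p under 0.05 remained in 8 of 18 fits that left out 1 library each, and without Y25, the lowest young library, the log2 fold change was 0.38 and missed that limit.

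Ide showed no difference past the tests. In order of lowest, median and highest, its values were 1268, 1929 and 2307 in young, 1231, 1628 and 1708 in MA, and 1262, 1521 and 3109 in aged mice. The aged mice A18 and A20 lay above all young mice, and the other aged mice lay within or just below the young range. Between older and young mice the log2 fold change was -0.15 ± 0.19 (SE), with an adjusted p of 0.900 in limma and an exact permutation p of 0.446. The 95% interval allows 0.691 to 1.18 times the young level, and in females alone the log2 fold change was 0.02. Aged against MA mice gave 0.21 ± 0.21 (SE; exact permutation p = 0.407).

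Cyfip2 was even across the groups. Its lowest value, median and highest value were 8411, 11746 and 13199 in young, 7789, 10903 and 13381 in MA, and 10153, 11132 and 13234 in aged mice. The r of Cyfip2 with the neuronal marker sum was 0.69 over the 18 libraries, as a description. The groups overlapped almost entirely, and the standard deviation within a group was 0.15 to 0.33 on the log2 scale. Older and young mice differed by -0.04 ± 0.15 (SE) on the log2 scale (exact permutation p = 0.791), and the 95% interval allows 0.790 to 1.21 times the young level. The sign of so small a difference turned with quantile normalization, to 0.064. A missense change need not alter the level of a transcript, and the protein was not measured.

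Crb1 had its highest values in aged and its lowest in young mice, with a wide spread. Lowest, median and highest were 96.3, 221 and 559 in young, 198, 415 and 674 in MA, and 313, 504 and 1234 in aged mice. Of the 12 older mice, 4 lay above every young mouse, and none lay below the young range. Older mice had a level higher by 1.04 ± 0.39 (SE) on the log2 scale, or 2.06-fold, with an adjusted p of 0.836 in limma and an exact permutation p of 0.0279. Against young mice it was higher by 0.74 in MA and 1.34 in aged mice, while aged against MA mice gave 0.60 ± 0.45 (SE; exact permutation p = 0.197), which became -0.24 with recording cohort as a term. Without the young mouse Y20, the lowest library, the difference between older and young mice was 0.77 and had no unadjusted p under 0.05, which it had in the other 17 fits that left out 1 library.

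In females the Crb1 groups were separate. The 3 young females had 96.3, 200.3 and 241, all below the 6 older females, which ranged from 313 to 1123. This gave a log2 difference of 1.72 and an exact permutation p of 0.0238, the smallest that 3 against 6 mice allow. The share of all genes tested that separate in females was not counted, so this separation cannot be set beside it. In males the difference was 0.36 (exact permutation p = 0.643), and the young males Y27 and Y28 had 559 and 484. The difference between the sexes was -1.36 ± 0.69 (SE) on the log2 scale, with an adjusted p of 0.998 in limma, so the sexes were not shown to differ. Markers of thalamus moved opposite to Crb1: over the 18 libraries their summed log2 level had an r of -0.61 with Crb1, as a description. That sum over 5 markers, none at 0 in any group, ranged from 6496 to 38461 in young, 5683 to 18090.4 in MA and 7596 to 14893 among aged mice. The highest sum, 38461, was that of Y20, the library without which Crb1 has no unadjusted p under 0.05, and the next was 18090.4 in MA5. On the log2 scale the sum differed by -0.21 between older and young mice (exact permutation p = 0.549), and its part in the Crb1 result was not tested. The sum of 4 dentate granule cell markers, none at 0 in any group, had an r of 0.55 with Crb1. It ranged from 4573 to 9576 in young, 4625 to 10309 in MA and 3721 to 12307 among aged mice, and its part was not tested either.

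Wdfy1, alone of the 4 genes with an unadjusted p under 0.05, had the lower values in older mice. From lowest over median to highest they were 2726, 3188 and 3574 in young, 1793, 2611 and 3286 in MA, and 1945, 2098 and 3133 in aged mice. Of the 12 older mice, 7 lay below every young mouse, and none lay above the young range. Older mice differed by -0.41 ± 0.14 (SE) on the log2 scale, or 1.33-fold lower, with an adjusted p of 0.836 in limma. The exact permutation p was 0.0052. In females the 3 young mice lay above all 6 older mice (log2 difference -0.49, exact permutation p = 0.0238, the smallest these numbers allow). The share of all genes tested that separate in females was not counted. In males the difference was -0.32 (p = 0.238, exact). The log2 fold change stayed between -0.46 and -0.35, with an unadjusted p under 0.05, in all 18 fits that left out 1 library each. Aged and MA mice differed by -0.12 ± 0.16 (SE; exact permutation p = 0.504).

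Nlrp12 had low and variable values, with a young mean of 22.3 under the limit of 25, so it was tested only through the older groups. Lowest, median and highest value were 1.02, 23.9 and 42.0 in young, 7.99, 32.3 and 139 in MA, and 5.52, 54.1 and 112 in aged mice. Of the 12 older mice, 5 lay above every young mouse, while 41.3-fold separated the highest and lowest young library. Older and young mice differed by 1.22 ± 0.75 (SE) on the log2 scale, with an exact permutation p of 0.137 and a 95% interval of -0.35 to 2.79. Without the young mouse Y27, the lowest library, it was 0.63, and without the aged mouse A15 it was 1.53, with an unadjusted p under 0.05 in limma. Aged and MA mice differed by 0.24 ± 0.87 (SE; exact permutation p = 0.773). Nlrp12 is a gene of myeloid cells, which a NeuN sort should remove. The summed level of 5 microglial markers, none at 0 in any group, was 1281 to 3471 in young, 647 to 2463 in MA and 532 to 1466 among aged mice. On the log2 scale this sum differed by -0.65 between older and young mice (exact permutation p = 0.0498), and the r of the sum with Nlrp12 was 0.10. Of the 5 markers, 2 had an unadjusted p under 0.05, where 5.83% of all genes did, and 0 were called, where 0.0834% were. A microglial part in the Nlrp12 values was not tested. The endothelial marker sum had an r of 0.77 with Nlrp12 over 18 libraries and ranged from 585 to 2143 in young, 738 to 2159 in MA and 611 to 3315 among aged mice, with no marker at 0 in any group. Its part in the result was not tested.

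**Figure D4:**
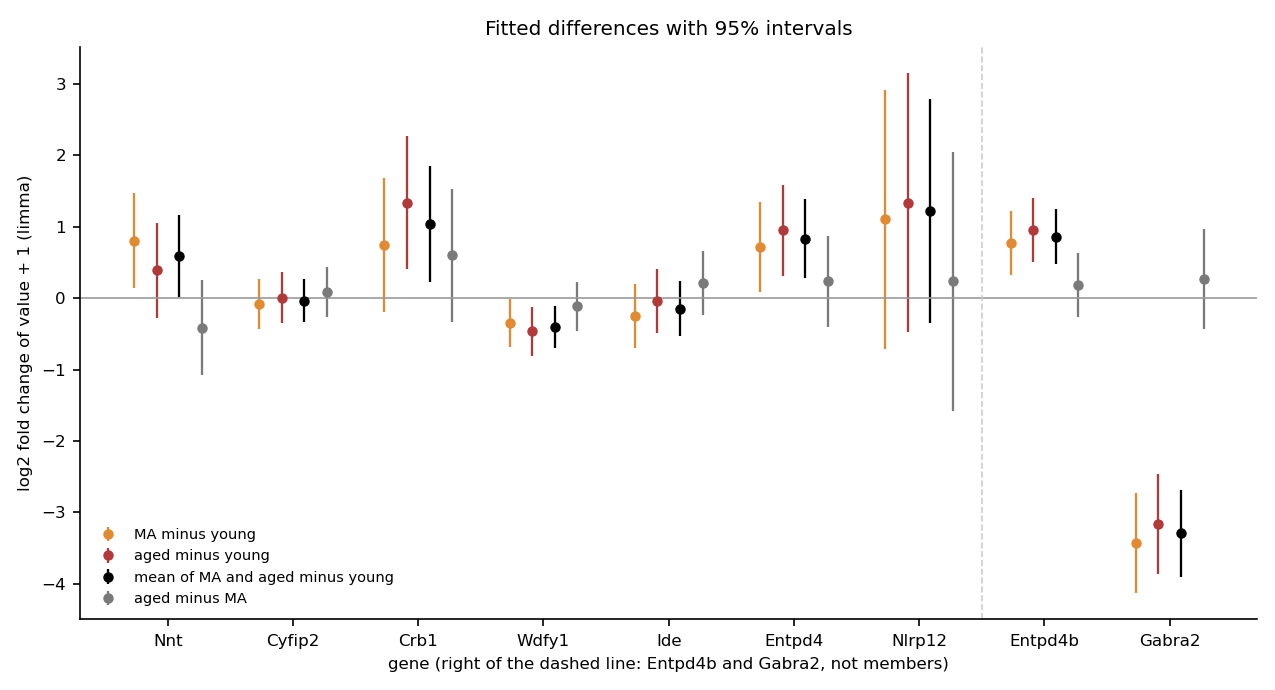
Fitted log2 fold change of value + 1 with its 95% interval from limma, for MA minus young, aged minus young, the mean of both minus young, and aged minus MA, with Entpd4b and Gabra2 to the right of the dashed line. All intervals for aged minus MA cross 0, and Gabra2 lies near -3.30 in older against young mice.

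Gabra2, an alpha subunit of the GABA-A receptor, gives the scale of a difference that follows the split of young from older mice without exception. An intronic deletion in C57BL/6J is known to lower its expression. Its lowest, median and highest values were 11092, 16238 and 23607 in young, 937, 1487 and 2445 in MA, and 886, 1603 and 4345 in aged mice, with no overlap between young and older mice. Older mice differed by -3.30 ± 0.29 (SE) on the log2 scale, or 9.83-fold lower, with an adjusted p of 2.96e-06 in limma. Aged and MA mice differed by 0.27 ± 0.33 (SE; exact permutation p = 0.535). The split of young from older mice held 86.8% of the variance of log2 Gabra2. For the 7 genes the share was 38.9% for Wdfy1, 36.2% for Entpd4, 27.8% for Crb1, 22.5% for Nnt, 14.3% for Nlrp12, 3.65% for Ide and 0.506% for Cyfip2.

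Dock2, duplicated in some C57BL/6N stocks, was not called and had a log2 fold change of -0.29 ± 0.57 (SE) between older and young mice. Fgfbp3, a carrier of fibroblast growth factors from the same variable segment as Ide, was below the filter. It was listed at 0 in 3 young, 1 MA and 1 aged mouse, and its values reached 11.7 in young, 39.6 in MA and 56.4 among aged mice. Its mean log2(value + 1) was higher in older mice with an exact permutation p of 0.0396, unadjusted. The difference was 3.56 in males (exact permutation p = 0.0238), where 2 of 3 young mice were at 0. It was 0.92 in females (exact permutation p = 0.667) and 1.24 in cohort C (exact permutation p = 0.391). These values lie near 0.

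The pathways in which the 7 genes act were counted beside all genes. Of 105 genes in 7 lists, 100 were tested and 0 were called between older and young mice, beside 0.0834% of all genes. At an unadjusted p under 0.05, 2 were higher and 4 lower, together near the share of 5.83% of all genes in both directions. Nod2, among the higher genes, had a young mean under 25 and was tested only through the older groups. Among 15 genes of mitochondrial NADPH and redox, 0 passed that unadjusted limit, with log2 fold changes from -0.26 to 0.22 and a median of -0.06. The malic enzyme Me3 gave -0.06 and the superoxide dismutase Sod2 0.11. The 15 WAVE complex genes and partners held 1 with an unadjusted p under 0.05, Wasf1, a WAVE protein. It was at 3031 ± 1056 (SD, n = 6) in young, 4213 ± 1331 in MA and 4719 ± 1413 among aged mice (log2 fold change 0.59 ± 0.23 (SE), adjusted p = 0.836 in limma). The complex subunits Abi2 and Nckap1 gave -0.07 and 0.01. The 14 genes tested of the Crumbs and PAR polarity complexes included 0 past the unadjusted limit, with a median of -0.06. Prkcz, an atypical protein kinase C, gave -0.08 and Inadl, a scaffold of the Crumbs complex, -0.18.

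The lists of the other 4 genes likewise held no call. Eea1, an early endosome tether that also binds phosphatidylinositol 3-phosphate, was 1 of 15 genes of the Wdfy1 list with an unadjusted p under 0.05, at -0.37 ± 0.15 (SE), while the FYVE domain proteins Wdfy3 and Zfyve9 gave -0.22 and 0.08. The endothelin-converting enzyme Ece2, with -0.41 ± 0.19 (SE), was 1 of 14 genes tested for insulin and amyloid peptide turnover, where App gave -0.16 and Sorl1 -0.22. The 15 genes of the Entpd4 list are nucleotide and nucleoside phosphatases and related enzymes of nucleotide turnover. Of these, Cant1 (-0.44 ± 0.20) and Enpp1 (-0.72 ± 0.27) were lower at an unadjusted p under 0.05. The median of that list was -0.20, and Enpp2 and Enpp5 gave -0.08 and -0.15. Of 12 genes tested among the NOD-like receptors and inflammasome, Nod2, a receptor for bacterial muramyl dipeptide, was tested only through the older groups. It was at 14.2 ± 12.2 (SD, n = 6) in young, 47.6 ± 26.1 in MA and 28.3 ± 21.2 among aged mice. Its log2 fold change of 1.61 ± 0.62 (SE) is given as a description. Map3k14, a kinase of noncanonical NF-kappaB signalling, gave 0.13 and the NOD-like receptor Nlrc3 -0.30. The adjusted p of Eea1, Ece2, Cant1, Enpp1 and Nod2 was 0.836 each in limma.

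The 7 genes did not vary as 1 group. Over the 18 libraries their pairwise r on the log2 scale ranged from -0.60 (Wdfy1 with Entpd4) to 0.57 (Crb1 with Entpd4), given as a description over libraries that share the split by supplier and age. Over the 12 older libraries alone, Crb1 and Entpd4 had an r of 0.67 and Crb1 and Nnt one of -0.75.

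For each gene, the tested genes with the most similar or most opposite pattern over the 18 libraries were named by absolute r, as the extremes of 17985 genes. They were Vangl2 (-0.81), Fancm (-0.79) and Gm14966 (0.77) for Nnt, and Acsl1 (0.89), Trim32 (0.87) and Daglb (0.85) for Cyfip2. For Crb1 they were Luzp1 (-0.88), 1600002H07Rik (-0.86) and Baz2b (-0.83), and for Wdfy1 Tbcd (0.91), Lrrc72 (-0.89) and Srrm1 (0.88). Ide was followed by Kcnc2 (0.77), 2810428I15Rik (-0.76) and Tomm7 (-0.74), and Entpd4 by its copy Entpd4b (0.92), Galt (-0.89) and Trpc5os (-0.88). For Nlrp12 they were Olfr826 (0.94), Olfr311 (0.93) and Gm16751 (0.93). Over the 12 older libraries, where supplier does not vary, the genes were Ybx3 (0.94), Vangl2 (-0.94) and Prdm2 (0.90) for Nnt. Cyfip2 was followed by Irf8 (-0.93), Vps33a (0.92) and Cldn12 (0.91), and Crb1 by Syt17 (0.92), Gabrg1 (0.92) and 2810001G20Rik (-0.90). For Wdfy1 they were Ssh2 (0.94), Tph2 (-0.90) and Ldb3 (0.90), and for Ide Gm9803 (-0.94), E2f6 (-0.88) and B630019A10Rik (-0.86). Entpd4 was followed by App (0.97), Rpn2 (0.95) and Rnf145 (0.94), and Nlrp12 by 4930550C14Rik, Adam2 and Sult2a1 (0.96 each). Only Vangl2, a planar polarity protein, was among the leading genes of the same member, Nnt, over both sets of libraries. None of the genes named in this paragraph was called between older and young mice.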

How the data were processed

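The deposited table holds a normalized signal per gene and library. The authors made it with Kallisto on an index with introns, summed transcripts to genes and divided by DESeq2 size factors; the genome is mm39 in their methods and mm10 in the submitters' processing notes, and versions are not given in the sources used here. No step of 1 read could be recovered from this signal, so depth is unknown and no count model was run. Of 27782 genes, 2 symbols were repeated and 1072 were 0 in every library. Group came from the labels, and sex and cohort from the study's methods and source data.

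Values were analysed as log2(value + 1) by limma's moderated test with a mean-variance trend (limma 3.58.1, R 4.3.3), on all 18 libraries with group and sex as terms, for 17985 genes with a mean of at least 25. A gene was called at a Benjamini-Hochberg adjusted p of 0.05 together with a log2 fold change of 0.5 or more in size. Single values were compared by exact permutation of mice, two-sided and unadjusted, in 104 tests of the 7 genes (56) and the other substrain genes, besides those of marker sums and of the Entpd4 pair. The fit was also run on simulated data, and the outcome is not given here. Positions and sequences came from GRCm39 and GENCODE vM39 and older symbols from RefSeq, and figures were drawn with matplotlib 3.10.9. Permutations were enumerated in numpy 2.4.6 and checked on 1 case against scipy 1.17.1, with tables in pandas 2.3.3 under Python 3.11.15. Genes and lists were chosen with earlier results of these data known. Named were the 7 genes, other substrain variant genes (some not reported here), the 2 pathway genes of highest mean in each list, the 3 most alike, and neighbours if called; Wasf1, Eea1, Ece2, Cant1, Enpp1, Nod2, the genes of the identical run and the single libraries were named after their values were seen. Each mouse gave 1 library, so p-values measure the spread between mice. Alternatives covered filters, pseudocounts, scaling, covariates, weights, sexes, cohorts and single libraries.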

Additional observations from a re-analysis of the deposited data

Results flagged for a closer look

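Entpd4 and Fgfbp3 each held 1 value far from its group on the log2(value + 1) scale, of 39 groups of 6 libraries tested (the 7 genes and the other substrain genes, in 3 age groups), and chance alone flags about 1 in 20 such groups. Entpd4 was 654.3 in the young mouse Y22, the lowest of its group, and the gap to the next young mouse was 0.677 of the range on that scale. Its copy Entpd4b was also lowest there, at 789. Without Y22 the log2 fold change of Entpd4 between older and young mice was 0.62, and that of the sum of both copies was 0.67. Fgfbp3 was listed at 0 in the MA mouse MA8, with a gap of 0.639 of the range on that scale.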

How the results depend on the processing

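None of the 7 genes was called under any alternative, in older against young or in aged against MA mice, and 443 of 467 refitted or recomputed values kept the direction reported above. The count of the 7 genes with an unadjusted p under 0.05 in older against young mice was 4, where 1048 of 17985 genes tested had one. It became 2 in females only (825 of 18037 genes tested), in males only (898 of 17763) and without Y25 and MA5 together (971 of 18051). It was also 2 in cohort C only (853 of 18011), an alternative chosen after seeing the data. Leaving out single libraries gave 2 (without Y20, 930 of 18043) to 5 (without A15, 1770 of 18083). In aged against MA mice the count was 0 (381 of 17985 genes tested) and became 1 in males only (Crb1, 1.27, beside 414 of 17763 genes tested). Calls over all genes, 15 in older against young, were 6 in females and 5 in males. MA against young mice gave 14 calls, but 6 with cohort as a term, 4 in females, 3 in males, 9 without Y25 and MA5 and 7 in cohort C, and aged against young gave 11, but 3 in females, 4 in males and 7 in cohort C. The cause was not tested, beyond the fewer libraries of most of these fits.

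No direction of Nnt or Wdfy1 turned, and none of Crb1, Entpd4 or Nlrp12 in older against young mice. In older against young mice, Cyfip2 was 0.064 after quantile normalization (single libraries left out -0.12 to 0.019) and Ide 0.016 in females and in cohort C. In aged against MA mice, Cyfip2 was -0.017 after quantile normalization (single libraries left out -0.014 to 0.15). With cohort as a term the aged against MA values were -0.24 for Crb1, -0.038 for Ide, -0.014 for Entpd4 and -0.67 for Nlrp12. In females, and equally in cohort C, they were -0.070 for Crb1, -0.014 for Ide, -0.076 for Entpd4 and -1.30 for Nlrp12, which ranged from -0.14 to 0.85 with single libraries left out.

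No paired analysis was possible because the labels' numbers name mice and are shared by only 1 young and 1 aged mouse. Depth is unknown. A mean filter of 100 left no value for Nlrp12.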

Other observations

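Besides Gm27177, which crosses the edge of the run shared by both Entpd4 copies, 3 neighbours of the 7 genes outside that run had an unadjusted p under 0.05. This was between older and young mice, and none of them was called. Tnfrsf10b, a death receptor gene 400197 bases from Entpd4, had a log2 fold change of 1.33, and R3hcc1, 327622 bases away, one of -0.54. Thg1l, a tRNA guanylyltransferase gene 238208 bases from Cyfip2, had one of 0.82. Their adjusted p was 0.836 in limma, and they were named after their values were seen.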
